A study of Mus musculus with 2 samples.

Results

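The Mir322 to Mir450 cluster is a group of 7 microRNA hairpins on the mouse X chromosome, described here in embryonic hindbrain. Its loci are Mir322, Mir503, Mir351, Mir542, Mir450-2, Mir450-1 and Mir450b, in the order of transcription. They were picked by name from the 1973 microRNA loci of the count tables, with no threshold on their values but with earlier results of these data known, and all 7 had a row. Small RNA under 30 nucleotides was sequenced from hindbrain of B6NCrl mice, an inbred laboratory strain, at embryonic day 14.5. The series holds 1 group of 2 libraries, from tissue collected on 24 July (replicate 1) and 30 July (replicate 2), with no treatment or genotype difference in the labels. One label calls each sample a single hindbrain and another calls it pooled male and female, while the donor label is the same for both. Whether the libraries come from separate animals is therefore not known. Every SD measures only the spread between these samples, which may be technical. Every p-value compares only these samples, and those of the binomial test used below allow for counting error alone.

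MicroRNAs are short RNAs cut from hairpin transcripts that repress messenger RNAs, mainly through pairing of the seed, bases 2 to 8 from the 5′ end. Mir322, the rodent counterpart of human MIR424, and Mir503 make microRNAs related to miR-15 and miR-16, which repress cyclins and other cell cycle genes. Both are known for promoting cell cycle exit when skeletal muscle cells differentiate. Mir351 makes a microRNA with the seed of miR-125, a family abundant in brain. The roles of Mir542 and of the Mir450 loci are less well known.

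The mature sequences are shown because their seeds decide how the loci are grouped, and because identical sequences limit what could be counted. They are RefSeq sequences on GRCm38.p6, 5′ to 3′, with the seed in capitals.
miR-322-5p: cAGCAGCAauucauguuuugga
miR-503-5p: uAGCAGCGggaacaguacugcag
miR-351-5p: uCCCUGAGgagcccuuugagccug
miR-542-3p: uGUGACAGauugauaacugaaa
miR-450a-5p: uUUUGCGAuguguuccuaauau
miR-450b-5p: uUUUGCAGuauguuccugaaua
miR-450a-1-3p: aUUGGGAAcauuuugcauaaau
miR-450a-2-3p: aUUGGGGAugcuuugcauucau
miR-450b-3p: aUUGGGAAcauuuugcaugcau
The seed of miR-322-5p was also found at 10 other loci of the RefSeq table, and that of miR-351-5p at 5. The seed of miR-503-5p was found at no other locus: it differs from that of miR-322-5p by A8G, counted from the 5′ end, while bases 2 to 7 are the same. Outside the seed the sequences diverge, and miR-322-5p and miR-503-5p had the same base at 11 of 22 positions.

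miR-450a-5p is made by both Mir450-1 and Mir450-2. Their hairpins are shown with the longest run they share, 25 bases, in capitals, at chrX:53048154-53048244 and chrX:53048299-53048367 (GRCm38.p6, minus strand).
Mir450-1: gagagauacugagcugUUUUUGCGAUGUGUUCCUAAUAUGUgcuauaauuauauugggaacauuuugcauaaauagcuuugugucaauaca
Mir450-2: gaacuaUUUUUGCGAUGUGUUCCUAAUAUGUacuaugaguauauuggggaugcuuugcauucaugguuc
That run holds the whole of miR-450a-5p, so its reads map to both hairpins. Multimapping reads stood in a row of their own, with 33.9% of reads in replicate 1 and 34.3% in replicate 2, and were not assigned to loci. The counts of Mir450-1 and Mir450-2 therefore leave out such reads. Mir450b shared a run of at most 19 bases with another hairpin, and no mature sequence of Mir322, Mir503, Mir351 or Mir542 shared a run of more than 11 bases with another hairpin of the RefSeq table.

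The 7 hairpins span 6353 bases, chrX:53047997-53054349 on the minus strand (GRCm38). Mir503 begins 200 bases downstream of Mir322, and Mir351 lies 630 bases further on. A gap of 3767 bases separates Mir351 from Mir542, and 1035 bases follow before Mir450-2, Mir450-1 and Mir450b, which lie 54 and 75 bases apart. No other GENCODE M21 gene overlaps any of the hairpins. In that annotation the noncoding gene C430049B03Rik ends 697 bases upstream of Mir322, and the long noncoding RNA gene Gm28730 lies between Mir351 and Mir542. In RefSeq, C430049B03Rik runs on to base 53053112 and so includes Mir322, Mir503 and Mir351.

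Levels are given in CPM, gene-strand counts scaled to a library of 1000000 counts over all microRNA loci. Multimapping reads are not among these counts, so levels, ranks and shares hold only for counts assigned to a single locus. Replicate 1 had 5826676 such counts and replicate 2 had 6667238. The mature members are 21 to 24 bases long, so no scaling by length was made, but levels of different microRNAs also carry the unequal capture of sequences when small RNA libraries are made, for which there was no measure. Intervals are 95% Clopper-Pearson intervals and, because no molecular identifiers were counted, cover counting error only. A locus counted as detected when both libraries had 10 or more counts, and the median level of the 401 detected loci was 129.8 CPM. All 7 members were among these 401, and 3 of them (Mir322, Mir351 and Mir542) lay above that median.

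Among counts assigned to a single locus, the cluster was expressed mainly as Mir322, whose level was far above that of its neighbours. The 7 members together had 6457 CPM in replicate 1 (interval 6392 to 6523) and 6941 CPM in replicate 2 (6878 to 7004), a mean of 6699 ± 342 CPM (SD, n = 2), or 0.670% ± 0.0342 of microRNA counts. Mir322 held 87.0% of the cluster's counts in replicate 1 (86.7 to 87.4) and 87.5% in replicate 2 (87.2 to 87.8). The other 6 members, on the same strand within a few kilobases, thus shared the small remainder of these counts. Reads of miR-450a-5p, which map to both Mir450-1 and Mir450-2, are not among them.

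Mir322 had 32745 counts in replicate 1 and 40487 in replicate 2. Its level was 5619.8 CPM and 6073 CPM, a mean of 5846 ± 320.1 CPM (SD, n = 2), which placed it 33rd of all 1973 loci. It was the most abundant of the 120 X-linked loci in the tables. Both ranks are among counts assigned to a single locus, which leave out multimapping reads. The hairpin (ENSMUSG00000065418.1) lies at chrX:53054255-53054349 and is printed with miR-322-5p in capitals, since most counts of the cluster were assigned to this hairpin.
Mir322: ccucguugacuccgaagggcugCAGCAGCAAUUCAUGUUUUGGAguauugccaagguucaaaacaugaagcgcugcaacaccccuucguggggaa
The tables give 1 count per locus and do not separate the 5p and 3p products.

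Mir503, the other member related to miR-15 and miR-16, was much lower, although its hairpin is the nearest to Mir322. It had 670 and 806 counts, or 115 and 121 CPM (mean 118 ± 4.17, SD, n = 2), in replicates 1 and 2. For every 1000 counts of Mir322 there were 20.5 counts of Mir503 in replicate 1 and 19.9 in replicate 2. Its hairpin (ENSMUSG00000076122.1) is at chrX:53053984-53054054. Mir503 ranked 208th of all loci, and 27th among X-linked loci.

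Mir351, which carries the miR-125 seed, was the next member after Mir322. It had 2911 and 3683 counts, or 499.6 and 552 CPM (mean 526 ± 37.3, SD, n = 2), and held 7.74% of the cluster's counts in replicate 1 and 7.96% in replicate 2. Mir351 (ENSMUSG00000065503.1), at chrX:53053255-53053353, ranked 122nd of all loci and 12th among X-linked loci. The 3 hairpins inside the RefSeq transcript C430049B03Rik together held 96.9% ± 0.456 of the cluster's counts (SD, n = 2).

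Mir542, across the largest gap of the cluster, had 1044 counts in replicate 1 and 1025 in replicate 2. Its level was 179 and 154 CPM (mean 166 ± 18.0, SD, n = 2), above Mir503 in both libraries. Mir450b, the last hairpin, had 222 and 221 counts, or 38.1 and 33.1 CPM (mean 35.6 ± 3.50, SD, n = 2). Their hairpins are at chrX:53049403-53049487 (Mir542, ENSMUSG00000076140.1) and chrX:53047997-53048078 (Mir450b, ENSMUSG00000076050.1). These loci were counted at similar numbers in both libraries although replicate 2 was sequenced more deeply.

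Mir450-1 and Mir450-2 were counted least, and their values are uncertain because of the shared run printed above. Mir450-1 (ENSMUSG00000065486.1) had 17 and 28 counts, or 2.92 and 4.20 CPM (mean 3.56 ± 0.907, SD, n = 2). Mir450-2 (ENSMUSG00000076399.1) had 16 and 25 counts, or 2.75 and 3.75 CPM (mean 3.25 ± 0.710, SD, n = 2). The CPM ranges of these loci overlapped. The ratio of Mir450-1 to Mir450-2 was 1.06 in replicate 1 (0.505 to 2.25) and 1.12 in replicate 2 (0.630 to 2.00). These loci were thus not ordered by the counts, which leave out reads that map to both.

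The order of the members was the same in both libraries: Mir322, Mir351, Mir542, Mir503, Mir450b, Mir450-1 and Mir450-2. Apart from the last pair, no neighbours in this order had overlapping CPM ranges. The ratio of mean CPM was 11.1 for Mir322 to Mir351, 3.16 for Mir351 to Mir542 and 3.31 for Mir503 to Mir450b. The closest resolved neighbours were Mir542 and Mir503, with a ratio of 1.56 in replicate 1 (1.41 to 1.72) and 1.27 in replicate 2 (1.16 to 1.40). No counts fell on the strand opposite to any member in either library, where a count of 0 allows for 3 counts, or 0.515 CPM (replicate 1) and 0.450 CPM (replicate 2).

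**Figure D1:**
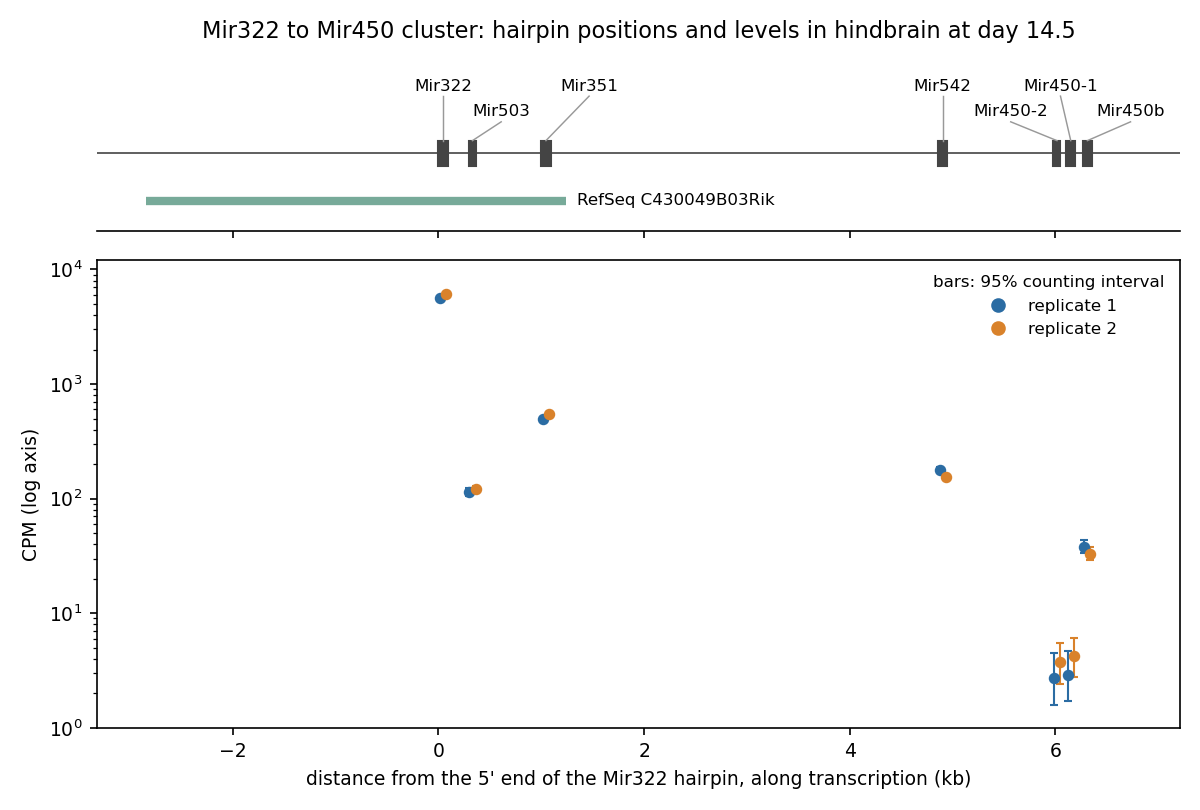
Hairpin positions by distance from the 5′ end of Mir322 in kb (top) and CPM on a log axis in each library (bottom, points set slightly apart, bars 95% counting intervals). Mir322 stands near 5846 CPM and Mir503, the next hairpin, near 118 CPM, while Mir450-1 and Mir450-2 lie lowest.

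Loci that share a seed can act on the same target sites, so the members' counts were set beside those of their seed families. The seeds of miR-322-5p and miR-503-5p were carried by 11 loci with a row, which together had 13925 ± 892 CPM (SD, n = 2). Among counts assigned to a single locus, which leave out multimapping reads such as those of miR-16-5p, Mir322 had the most of these 11, with 42.3% of the family's counts in replicate 1 and 41.7% in replicate 2. Mir15a, from the Mir15a and Mir16-1 cluster on chromosome 14, followed with 3618 and 4209 CPM. Mir16-1 had 2028 and 2125 CPM, Mir15b 985 and 993 CPM, and Mir195a 449 and 539.8 CPM in replicates 1 and 2. Mir16-2 had 479.7 and 496 CPM, and the remaining 4 loci of the family (Mir195b, Mir6342, Mir6353 and Mir6419) had no counts.
miR-322-5p: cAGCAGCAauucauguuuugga
miR-15a-5p: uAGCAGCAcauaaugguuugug
miR-16-5p: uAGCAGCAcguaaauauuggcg
miR-195a-5p: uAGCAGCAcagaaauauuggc
These are printed to show the common seed in capitals beside differing ends: miR-322-5p had the same base as miR-15a-5p at 15 of 22 positions and as miR-16-5p at 12.

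Together Mir322 and Mir503 held 43.1% of this family's counts in replicate 1 (interval 42.8 to 43.5) and 42.6% in replicate 2 (42.2 to 42.9), a mean of 42.8% ± 0.415 (SD, n = 2). The share is one of all counts at these loci, 3p products without the seed included, and it also carries unequal capture. Mir16-1 and Mir16-2 make the same miR-16-5p, whose reads mapping to both loci are not counted. Mir497, also of this seed, has no row of its own, and 2053 and 2681 counts stood on its strand in the row of Mir497b, which overlaps it. With these counts added, a setting chosen after the values were seen, the share was 41.7%.

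Mir351 was a minor locus of its seed family. The seed of miR-351-5p was carried by 6 loci, of which Mir6367 and Mir6394 had no counts. Mir125a had 8370.1 and 8938 CPM, Mir125b-1 2074 and 2103 CPM, and Mir125b-2 2029.8 and 2141 CPM. Mir351 held 3.85% of the family's counts in replicate 1 (3.71 to 3.99) and 4.02% in replicate 2 (3.90 to 4.15). Mir125b-1 and Mir125b-2 make the same miR-125b-5p, so their counts are uncertain too.
miR-351-5p: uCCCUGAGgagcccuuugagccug
miR-125a-5p: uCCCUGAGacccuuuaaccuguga
miR-125b-5p: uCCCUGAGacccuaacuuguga
The capitals are the same in the 3 sequences, and over the whole length miR-351-5p had the same base as miR-125a-5p at 10 of 24 positions. The seed of miR-542-5p recurred only at Mir6966, with 1 count in all, and that of miR-450b-3p and miR-450a-1-3p only at Mir6352, with no counts.

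**Figure D2:**
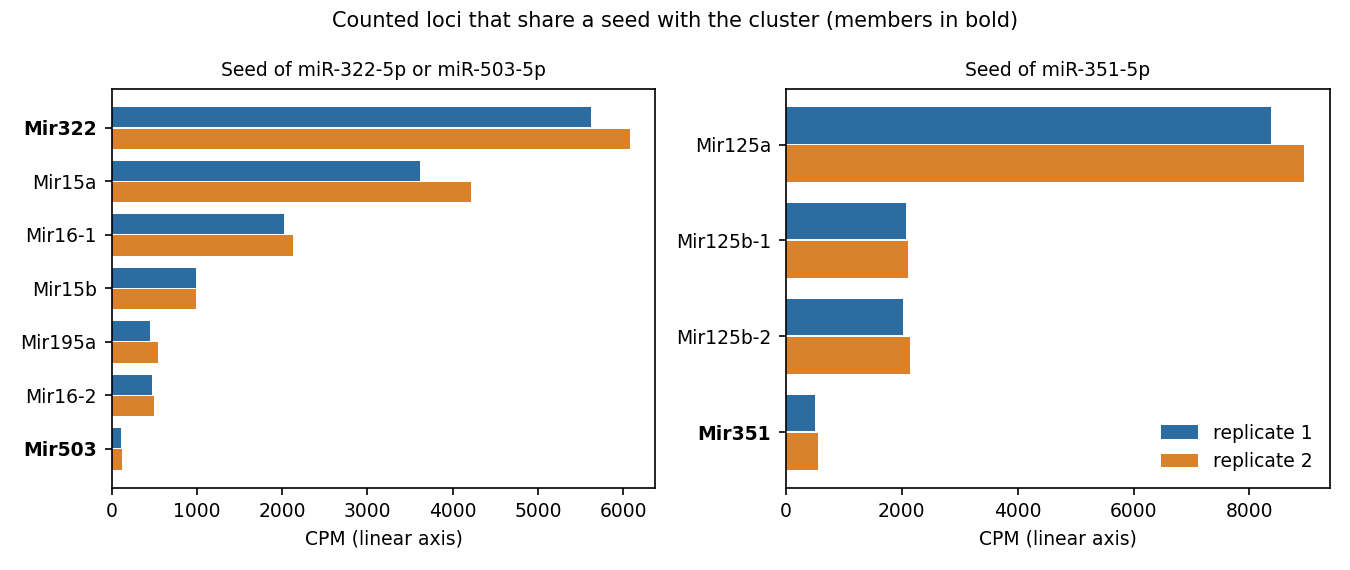
CPM on a linear axis in each library for the loci with counts that share a seed with Mir322 or Mir503 (left) or with Mir351 (right), cluster members in bold. Among counts assigned to a single locus, Mir322 leads its family with 5619.8 and 6073 CPM, whereas Mir351 has the fewest counts of the 4 loci on the right.

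With a single group, the only comparison the design allows is between the replicate libraries. Loci needed 10 or more counts over both libraries, which 498 had, and were compared by a two-sided exact binomial test after TMM scaling, with Benjamini-Hochberg adjustment at 0.05. The test compares these 2 libraries beyond counting error and not conditions. Of the 7 members 3 were called, against 32.5% of all loci tested. Mir322 and Mir351 were higher in replicate 2 (17.5% of all loci were called in that direction), Mir542 was lower (15.1% of all loci), and 4 did not pass. The split over all loci was 87 higher and 75 lower after TMM scaling and 114 and 59 when library totals were used. The median log2 ratio of the 7 members was 0.07, and that of all 498 loci was 0.01.

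The called differences were small. Mir322 was 1.05-fold higher in replicate 2, a log2 ratio of 0.07 (exact interval 0.05 to 0.09, adjusted p = 7.67e-10 in the exact binomial test). Mir351 was 1.07-fold higher, with a log2 ratio of 0.10 (0.03 to 0.17, adjusted p = 0.0149 in the exact binomial test). With DESeq2 size factors this call was lost (adjusted p = 0.0502), leaving 1 member higher and 1 lower. Mir542 was at 0.833 of its replicate 1 level in replicate 2, with a log2 ratio of -0.26 (-0.39 to -0.14, adjusted p = 0.000155 in the exact binomial test).

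Mir503 had a log2 ratio of 0.03 (-0.12 to 0.18) and Mir450b one of -0.24 (-0.52 to 0.03). The ratios of Mir450-1 and Mir450-2, 0.47 (-0.44 to 1.44) and 0.39 (-0.56 to 1.41), had the widest intervals, as their counts were the lowest. Summed to 1 locus, with 33 and 53 counts, they had a log2 ratio of 0.44 (-0.21 to 1.12, adjusted p = 0.376 in the exact binomial test). None of these 4 ratios passed the test, and the intervals do not show that the levels were equal.

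When edgeR's common dispersion, estimated from the same 2 libraries, was allowed for, 0 of the 7 members were called (0 at an unadjusted p under 0.05), against 1.41% of the loci tested. The smallest unadjusted p among the members was 0.255, for Mir542, in edgeR's exact test. That dispersion corresponds to a coefficient of variation of 10.8% between the libraries. The coefficients of variation of CPM of the 5 members with at least 100 counts in each library ranged from 3.54% for Mir503 to 10.8% for Mir542. These were taken without TMM scaling and include counting error, which edgeR's dispersion does not, so they are not directly comparable with it.

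The change of members relative to Mir322 does not depend on how the libraries are scaled. Mir351 kept close to Mir322, with 88.9 counts per 1000 of Mir322 in replicate 1 and 91.0 in replicate 2, a log2 change of 0.03 (-0.04 to 0.11). The log2 change of Mir503 was -0.04 (-0.19 to 0.11). Mir542 went from 31.9 to 25.3 counts per 1000 of Mir322, a log2 change of -0.33 (-0.46 to -0.21), and Mir450b from 6.78 to 5.46, a log2 change of -0.31 (-0.59 to -0.04). Mir450-1 and Mir450-2 lay at 0.41 (-0.51 to 1.38) and 0.34 (-0.62 to 1.34), with intervals too wide to place them. These intervals cover counting error between 2 libraries only.

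Grouped by the RefSeq transcript, a grouping chosen after the values were seen, Mir322, Mir503 and Mir351 had 36326 and 44976 counts and a log2 ratio of 0.07 (0.05 to 0.09). The other 4 members had 1299 counts in each library, of which Mir542 alone gave 1044 and 1025, so their sum mostly repeats the difference of Mir542, while the ratios of Mir450-1 and Mir450-2 were above 0.

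The loci of 2 other polycistrons were set beside the cluster: Mir106a-363, which lies 305 kb away on the same strand of the X chromosome, and its paralog Mir17-92, a cluster active in proliferating cells. In replicates 1 and 2 the Mir106a-363 loci together had 1067 and 819 CPM, and those of Mir17-92 had 26382 and 22872 CPM. Among counts assigned to a single locus, the leading locus took 43.9% of the Mir106a-363 level (Mir363) and 58.2% of the Mir17-92 level (Mir17). Mir322 took 87.3% in its own cluster. The shares leave out multimapping reads, and the difference between them was not tested. Mir92 and Mir19b each have a copy in both of these other clusters, and reads that map to both copies are not counted. Mir92-1 and Mir92-2 averaged 820 and 45.7 CPM, and Mir19b-1 and Mir19b-2 7.05 and 2.22 CPM. Which locus leads is thus not settled for all reads of these 2 clusters.

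Of the 6 Mir106a-363 loci, 4 were lower in replicate 2 (15.1% of all tested loci were), 0 were higher (17.5% of all) and 2 did not pass, with a median log2 ratio of -0.31. Mir106a had a log2 ratio of -0.66 (-0.77 to -0.55) and Mir20b one of -0.54 (-0.66 to -0.43). Of the 6 Mir17-92 loci, 3 were lower (Mir17, Mir20a and Mir18), 3 were not called and 0 were higher, beside the same shares of all tested loci, with a median of -0.10. Multimapping reads are left out of the summed counts of these clusters, so the ratios between them hold for counts assigned to a single locus. The summed counts of the Mir322 to Mir450 cluster were 6.05 times those of Mir106a-363 in replicate 1 and 8.47 times in replicate 2. The log2 change was 0.49 (0.43 to 0.54). Against Mir17-92 the ratio went from 0.245 to 0.303, a log2 change of 0.31 (0.29 to 0.33). With edgeR's common dispersion allowed for, 7 loci of the tables were called, and none of them belongs to these 3 clusters.

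**Figure D3:**
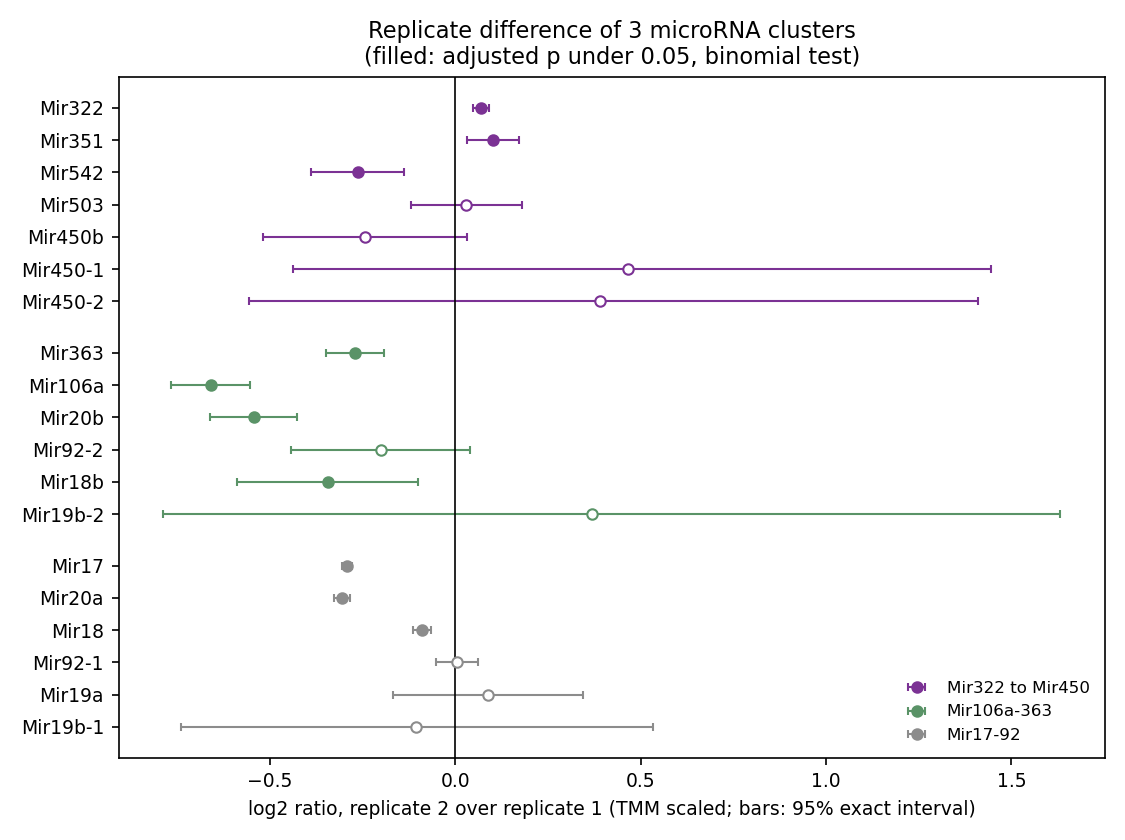
Log2 ratio of replicate 2 over replicate 1 with exact 95% intervals for the loci of the 3 clusters, filled where the adjusted p of the binomial test was under 0.05. Mir322 and Mir351 lie just above 0 and Mir542 below, while the called loci of Mir106a-363 and Mir17-92 all lie below 0.

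Markers of the cell types that dissected hindbrain can hold were summed in the same libraries. In bulk tissue, fewer cells of a type and less RNA per cell cannot be told apart. The hindbrain loci Mir10a and Mir10b, encoded in the Hox clusters, had 179036 and 140148 CPM in replicates 1 and 2. The 8 neural loci with a row had 12870.5 and 14208 CPM, and 6 of them were detected. Mir137 made up 75.1% of their mean level. Of the Mir9 copies, Mir9-3 had 3071 and 3370 counts, Mir9-2 had 9 and 10, and Mir9-1 had no row. The highest Mir124a copy, Mir124a-1, had 44 and 53 counts. Reads that map to more than 1 copy are not counted, so the sum does not rank neural against other markers. Among counts assigned to a single locus, markers of skeletal and heart muscle were low. The 8 muscle loci with a row summed to 22.7 and 24.9 CPM, led by Mir206 with 14.9 and 16.2 CPM, and 3 of the 8 were detected. Mir1a-1 and Mir133a-1 had 0 counts, and Mir1a-2 had no row. Reads that map to both copies of Mir1a or Mir133a are not counted, so these zeros do not show absence. Some of the muscle and neural loci have near-identical copies, so their counts leave out multimapping reads.

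Mesenchyme and smooth muscle markers were present, with 10975 and 11677 CPM over 6 loci, led by Mir143, Mir140 and Mir214, and 5 of the 6 were detected. The copies Mir199a-1 and Mir199a-2 averaged 0.643 and 7.89 CPM, which leaves out reads that map to both. The endothelial locus Mir126a had 31783 and 36687 CPM, and the 3 blood loci with a row had 455 and 582 CPM. Mir142, also listed for blood, had no row. The log2 ratio of the Mir322 to Mir450 cluster's sum was 0.06 (0.04 to 0.08). Beside it, the marker sums had log2 ratios of 0.05 for mesenchyme, 0.10 for neural loci, 0.09 for muscle (-0.24 to 0.43), 0.16 for Mir126a, 0.31 for blood and -0.40 for Mir10a and Mir10b. The loci of a list did not all change alike. Of the 5 mesenchyme loci tested, 2 were called higher in replicate 2 and 1, Mir214, was called lower. Of the 8 neural loci tested, 3 were called higher and 1, Mir9-3, was called lower, with a log2 ratio of -0.10. Of the 3 blood loci tested, Mir451a and Mir144 were called higher, while Mir223, at 0.06, was not called. Over all loci tested, 17.5% were called higher and 15.1% lower. The part of these cell types in the levels of the cluster was not tested.

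The loci whose levels over the 2 libraries lay nearest to those of Mir322, by Euclidean distance of log2(CPM + 1), were Mirlet7b (distance 0.0869), Mir23a (0.114) and Mir342 (0.144). They had 5604, 5541 and 5478 CPM on average and lie on chromosomes 15, 8 and 12. With 2 libraries of a single group this likeness is mostly one of level.

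The X chromosome as a whole had 177568 counts assigned to a single locus in replicate 1 and 199780 in replicate 2. They came from 120 loci, of which 44 were detected. The cluster made up 21.2% of these counts in replicate 1 (interval 21.0 to 21.4) and 23.2% in replicate 2 (23.0 to 23.3). After Mir322, the next X-linked loci by mean level were Mir1298, in an intron of a serotonin receptor gene, with 5275 and 3209 CPM, and Mir652 with 3523 and 3784 CPM. Among X-linked loci Mir542 ranked 25th, Mir450b 35th, Mir450-1 40th and Mir450-2 41st.

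**Figure D4:**
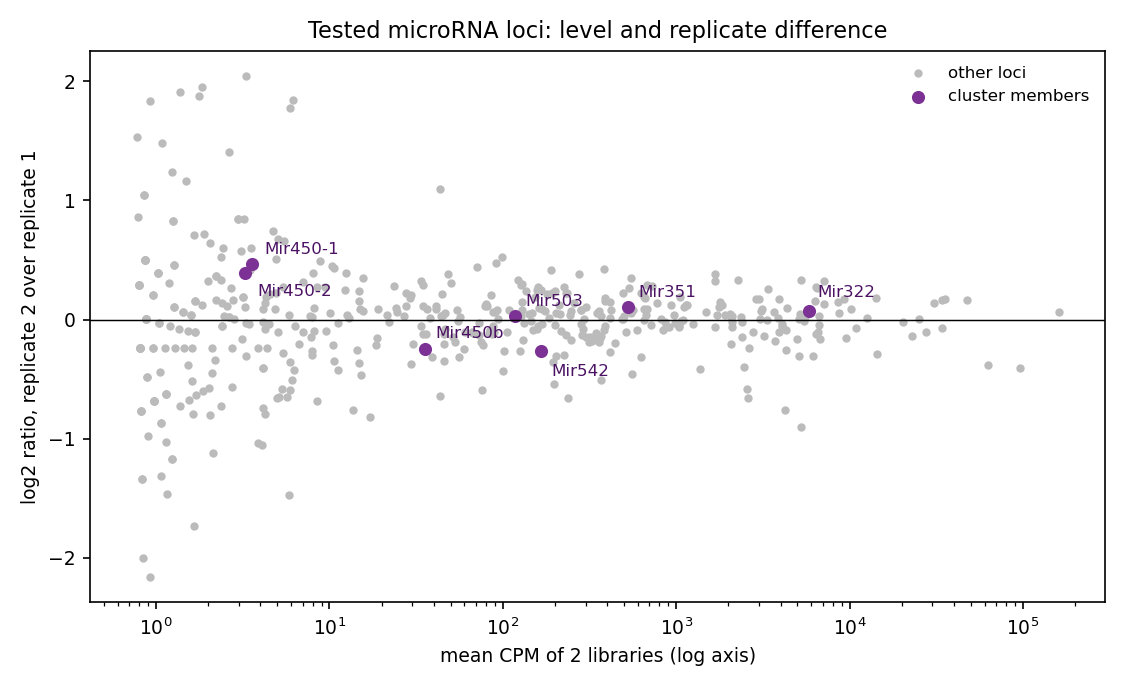
Mean CPM (log axis) against the log2 ratio of replicate 2 over replicate 1 for the 498 tested loci, with the 7 members in purple. Mir322 lies among the abundant loci close to a ratio of 0, and Mir450-1 and Mir450-2 lie among low-count loci where ratios spread widely.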

How the data were processed

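Per the labels, small RNA libraries were made from total RNA of mouse hindbrain. The deposited tables hold reads as raw counts for each microRNA locus, with no normalization, with columns for both strands, the gene strand and the opposite strand. Per the file lists that accompany them, the build was mm10 and the annotation release M4; which aligner and counter were used is not given in the sources used here. The gene-strand column held 98.0% and 97.8% of counts on loci in replicates 1 and 2. Library sizes and tests exclude the 4 rows of unassigned reads: 13.8% and 15.9% of reads were unmapped, and 33.9% and 34.3% were multimapping. Symbols came from GENCODE M21 (GRCm38, the same build), matched on the stable identifier for 1894 of 1973 loci, and sequences from RefSeq.

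CPM was computed from gene-strand counts. Replicates were compared over all loci with 10 or more counts in sum by an exact binomial test on TMM-scaled counts, because 2 libraries of 1 group leave edgeR's quasi-likelihood test without residual degrees of freedom. Log2 ratios added 0.5 to each count. The script was tested on simulated data. The members and lists were chosen with earlier results of these data known. Loci named were the members, those sharing a seed, the loci of 2 comparison clusters, the 3 nearest to Mir322 and leading cell type markers; the other X-linked loci, Mir497, Mir497b, Mir6966 and Mir6352 were named after their values were seen. Alternatives covered scaling, filter, strand, pseudocount, denominator, dispersion, summed copies and single libraries. Scaling used edgeR 4.0.16 and DESeq2 1.42.0 in R 4.3.3. Other steps used scipy 1.17.1, pandas 2.3.3 and numpy 2.4.6 in Python 3.11.15, with figures from matplotlib 3.10.9.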

Additional observations from a re-analysis of the deposited data

How the results depend on the processing

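With edgeR's common dispersion in place of counting error, 7 loci were called in all and 0 of the 7 members, against 162 and 3. That dispersion takes in the same difference between the libraries that it was then used to test. What lies behind that difference was not tested. The 3 members called kept their direction in every scaling, filter, strand and pseudocount setting run, and Mir351 alone lost its call, with DESeq2 size factors. With all reads of the table in the denominator, unassigned reads included, the cluster total was 3206 ± 26.8 instead of 6699 CPM, and the 7 member levels moved likewise, because the denominator is larger. The share of the miR-15/16 seed family was 41.7% with Mir497 counted. From single libraries the cluster total ranged from 6457 to 6941 CPM and the family share from 42.6% to 43.1%; calls cannot be made from 1 library. No paired analysis was possible because the study has 1 group. Mir450-1 and Mir450-2 had the fewest counts, at most 28 in a library, and these leave out reads that map to both.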

Other observations

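The base composition of 6 of the 7 hairpins is given here as values; that of Mir351 was not analysed here. G and C made up 51.6% of the Mir322 hairpin, 54.9% of Mir503 and 51.8% of Mir542. In the Mir450 loci they made up 33.0% (Mir450-1), 36.2% (Mir450-2) and 30.5% (Mir450b). Among the 3p products of the Mir450 loci, miR-450a-1-3p had the same base as miR-450b-3p at 20 of 22 positions, with the same seed, and as miR-450a-2-3p at 16 of 22, with the seed difference A7G counted from the 5′ end.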
